A study of Canis lupus familiaris with 5 samples.

Results

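Hematopoietic stem and progenitor cells from the marrow of healthy dogs were examined in 642 cells that carried transcripts of a stem-like gene group and held few or none of the transcripts that mark lineage commitment or division. They were picked from 2 libraries of viable CD34+ cells, isolated by flow cytometry from 2 of 3 femoral marrows (genotype Wt, no treatment, and no strain or age given in the labels). The other 3 libraries held whole marrow after red cell lysis, 1 from each of the 3 dogs. Each library is a droplet single-cell RNA library that tags transcripts at the 3′ end, with unique molecular identifiers (UMIs) that count each captured molecule once. One library stands for 1 dog in each group. Groups of sorted cells were compared within each library, so those p-values measure how much a difference varied between the 2 sorted libraries. For sorted against whole marrow, p-values measure the spread among 2 sorted and 3 whole-marrow libraries.

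A cell was kept as stem-like when the UMIs of SULT1B1, TFPI, RARRES2, ADGRG1 and MSRB3 added up to at least 6, with at most 2 UMIs of VPREB1, none of PAX5, at most 1 of GATA1, fewer than 3 of MKI67 and TOP2A together, fewer than 3 of DNTT, and MPO under 0.02% of all UMIs. These limits removed B cell precursors (VPREB1, the surrogate light chain, and PAX5, the B lineage factor), erythroid and megakaryocyte precursors (GATA1), neutrophil precursors (MPO, the granule peroxidase), dividing cells (MKI67 and TOP2A) and cells rich in DNTT. They cap these transcripts and do not exclude them, so DNTT stood at 1 or 2 UMIs in 325 and 177 of the cells kept, and GATA1 at 1 in 39 and 35. They left 430 of 4720 usable cells in CD34-sorted library 1, which is 9.11% (95% Clopper-Pearson interval 8.30 to 9.97), and 212 of 3765 in CD34-sorted library 2, which is 5.63% (4.92 to 6.42). In all, the stem-like cells made up 7.57% of 8485 usable sorted cells, in a series of 24708 usable cells. The intervals cover counting error only.

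Hematopoietic stem cells are rare marrow cells that renew themselves and give rise to every blood lineage, and most of them rest outside the cell cycle. CD34, a sialomucin of the cell surface, is carried by stem cells and by the progenitors that descend from them, early B cell precursors included. DNTT encodes terminal deoxynucleotidyl transferase, which adds nucleotides at the joints of antigen receptor genes and is switched on early on the lymphoid path. Progenitors often hold low levels of transcripts from several lineages at once, before one program takes over.

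The 5 libraries held 46114431 to 70169186 UMIs in total. Median UMIs per usable cell were 11622 and 14623 in the sorted libraries and 2694 to 4344 in whole marrow. The limit of 10% mitochondrial UMIs removed 208 cells (4.21%) from sorted library 1 and 1030 cells (21.1%) from sorted library 2. No pair of libraries shared more than 11 cell barcodes, at most 0.266% of a library's cells. CD79A, a signalling chain of the B cell receptor, stood at 12421 and 12013 CPM in the stem-like cells, against 10682 and 10160 CPM in the other sorted cells, while EBF1, a factor of early B cells, stood at 0.902 and 0.670 CPM in the stem-like cells, against 32.5 and 35.2 CPM. CD79B, the partner chain of CD79A, gave no UMI in the stem-like cells, and CD79A was also at 10373 and 10301 CPM in MPO-positive and 12629 and 11754 CPM in GATA1-positive sorted cells, described later. What the CD79A UMIs of these groups come from was not tested, so their level is given as counted. Here CPM are UMIs of a gene per 1000000 UMIs, summed over the cells of a group in 1 library and given for library 1 and then library 2.

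The genes used by the rule were spread over the cells and did not come from a single dominant transcript. At least 3 of the 5 stem-like genes were detected in 403 and 204 of the stem-like cells, and all 5 in 166 and 83. Their sum had a median of 13 and 13.5 UMIs and reached 40 in both libraries. SULT1B1, a cytosolic sulfotransferase, stood at 339 and 342 CPM in the stem-like cells, against 193 and 257 CPM in the other sorted cells. TFPI, which blocks the tissue factor pathway of clotting, stood at 147 and 133 CPM against 49.97 and 47.1 CPM. RARRES2, the precursor of the attractant chemerin, stood at 320 and 327 CPM against 169 and 140 CPM. ADGRG1, an adhesion receptor found on human stem cells, stood at 179 and 177 CPM against 79.9 and 64.0 CPM, and MSRB3, which repairs oxidised methionine, at 111 and 126 CPM against 43.3 and 39.7 CPM. These values follow from the choice of cells and were not tested.

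CD34 itself was not part of the rule beyond the sort. It had a UMI in 412 of 430 stem-like cells (95.8%) and in 199 of 212 (93.9%), at 457 and 346 CPM, against 383 and 218 CPM in the other sorted cells. Thinned to 5000 UMIs per cell, 83.3% and 75.6% of the stem-like cells kept a CD34 UMI. The share with a CD34 UMI among S100A12-rich whole-marrow cells, which are neutrophil-like and should lack CD34, was 1.16%, 1.22% and 2.08%, or 2.07% to 2.17% after thinning. Median depths were 12474 and 13479 UMIs in the stem-like cells, against 2493, 3189 and 4844 UMIs in those neutrophil-like cells. The 6 defining markers of the stem-like label are CD34 and the 5 genes of the rule, so CD34 is the one whose presence the rule did not fix. Their summed level was 1553 and 1450 CPM in the stem-like cells, against 918 and 766 CPM in the other sorted cells.

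**Figure D1:**
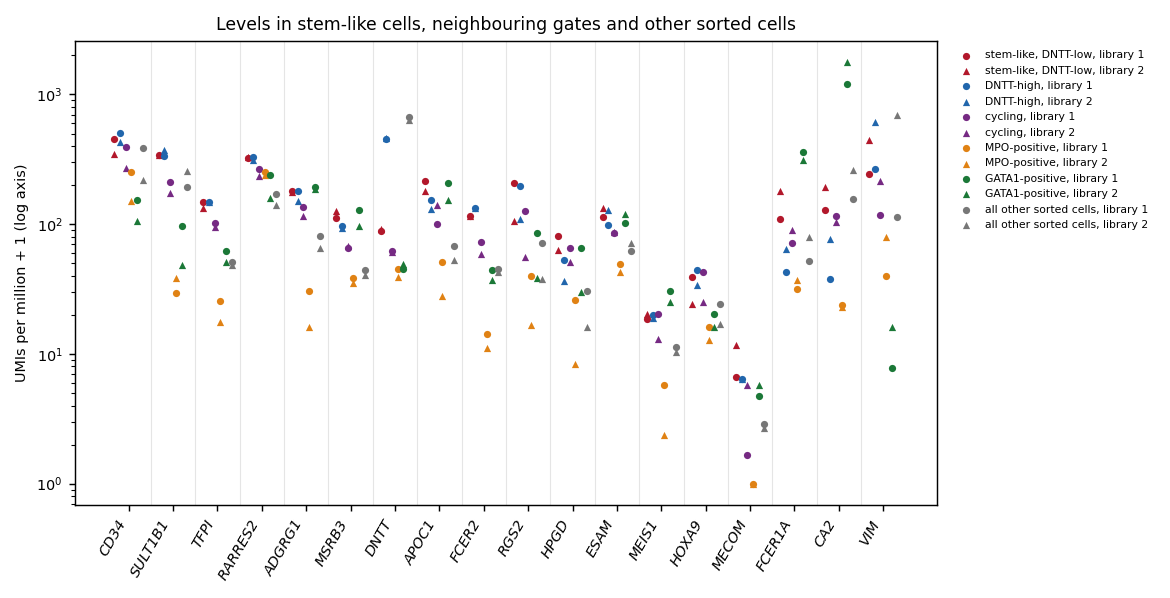
Levels of the 6 defining genes and of further genes named in the text, as CPM + 1 of summed UMIs on a log axis, in the stem-like cells and in each neighbouring group; each point is 1 CD34-sorted library. CD34 stood at 457 and 346 CPM in the stem-like cells, against 152 and 105 CPM in the GATA1-positive cells, and no group was without it.

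Classical stem cell regulators were present at low levels. KIT, the stem cell factor receptor, stood at 94.1 and 117 CPM in the stem-like cells, against 61.6 and 68.8 CPM in the other sorted cells. HOXA9, a homeobox factor of stem and early progenitor cells, stood at 38.0 and 23.4 CPM against 23.1 and 15.98 CPM, and its partner MEIS1 at 17.5 and 19.4 CPM against 10.4 and 9.37 CPM. MECOM, a zinc finger factor needed by stem cells in mice, stood at 5.59 and 10.7 CPM against 1.87 and 1.67 CPM. It had a UMI in 5.58% and 11.8% of the stem-like cells, against 0.652% and 0.319% of PAX5-positive sorted cells, whose median depth was 4608 and 7508 UMIs. After thinning to 5000 UMIs the shares with a MECOM UMI were 3.14% and 5.47% of the stem-like cells, against 0.741% (library 1) and 0 of 848 (library 2) of PAX5-positive cells, and 0 of 848 allows a share of up to 0.354%. Thinning left out 16 and 11 stem-like and 878 and 406 PAX5-positive cells as too shallow. HLF, a factor restricted to stem cells in humans and mice, had a UMI in 3.49% and 1.89% of the stem-like cells, against 0.0592% (library 1) and 0 of 1254 (library 2) of PAX5-positive sorted cells, the last of which allows up to 0.239%. After thinning these were 1.69% and 1.49% of the stem-like cells, against 0 of 810 and 0 of 848 PAX5-positive cells, which allow up to 0.370% and 0.354%. At these levels most single stem-like cells gave no MECOM or HLF UMI at all. In DNTT-high sorted cells, described later, the thinned shares were 3.53% and 3.75% for MECOM and 0.504% and 0.853% for HLF. Before thinning, HLF had a UMI in 2.17% and 1.701% of DNTT-high cells. In GATA1-positive sorted cells, also described later, the thinned MECOM shares were 0.901% and 2.29%, and HLF gave no UMI. Detection of either gene was thus not particular to the stem-like cells.

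Among genes outside the rule, APOC1, an apolipoprotein, led the genes by which the stem-like cells exceeded the other sorted cells, at 215 and 179 CPM against 66.9 and 52.4 CPM. RGS2, which dampens G protein signalling, stood at 207 and 105 CPM against 70.0 and 37.1 CPM. HPGD, the enzyme that inactivates prostaglandins, stood at 80.6 and 62.3 CPM against 29.3 and 15.0 CPM. FCER2, the low-affinity IgE receptor CD23, stood at 115 and 114 CPM against 44.2 and 41.5 CPM. FCER1A, the alpha chain of the high-affinity IgE receptor, stood at 108 and 181 CPM against 50.9 and 79.0 CPM, and ESAM, a junction protein that marks mouse stem cells, at 113 and 133 CPM against 61.4 and 71.0 CPM. The other named leading genes were ST7, NAV3, IGFLR1, SKAP1, FAM171B, DLA-DOA, RCAN2, NRIP1, TIMP2, RFTN1 and LSP1, and 3 of the 20 had only an identifier. The groups were cut on measured transcripts of these same cells, so this ranking is a description without a test. DNTT-high sorted cells, described later, held FCER2 at 132 and 131 CPM, RGS2 at 197 and 109 CPM and ESAM at 97.0 and 129 CPM. The levels of these 3 genes were thus not particular to the stem-like cells. GATA1-positive sorted cells, also described later, held APOC1 at 206 and 152 CPM and FCER1A at 362 and 312 CPM. The levels of APOC1 and FCER1A were thus not particular to the stem-like cells either. HPGD stood at 64.2 and 50.4 CPM in cycling sorted cells, against 80.6 and 62.3 CPM in the stem-like cells.

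Markers of other marrow cell types were low but not all absent in the stem-like cells. Of 7 endothelial markers, 4 and 5 stood at 0, with a summed level of 11.7 and 11.7 CPM, against 7.42 and 4.77 CPM in the other sorted cells, and most of it came from TEK, the angiopoietin receptor shared by stem and endothelial cells. Of 6 stromal markers, 6 and 5 stood at 0. Plasma cell markers summed to 19.3 and 13.7 CPM in the stem-like cells, against 46.0 and 41.5 CPM in the other sorted cells, and T cell markers to 102 and 89.0 CPM against 146 and 137 CPM, with CD3D at 47.8 and 61.9 CPM, CD2 at 36.2 and 18.4 CPM and CD3E at 0.902 and 0.335 CPM in the stem-like cells. Mature B cell markers summed to 120 and 119 CPM in the stem-like cells, against 80.5 and 82.8 CPM in the other sorted cells, and most of it was FCER2, at 115 and 114 CPM in the stem-like cells. The basophil, eosinophil and mast cell list also stood higher, at 140 and 239 CPM in the stem-like cells against 70.4 and 102 CPM in the other sorted cells, and FCER1A made up most of it, with EPX, the eosinophil peroxidase, at 0.180 and 0 CPM. FCER1A had a UMI in 37.2% and 50.5% of the stem-like cells, against 3.38% and 6.70% of PAX5-positive sorted cells, and after thinning in 27.5% and 39.8% against 3.21% and 5.07%. In sorted groups described later, the thinned shares were 73.9% and 63.4% of GATA1-positive and 20.5% and 23.5% of cycling cells. Among MPO-positive cells they were 15.1% and 15.5%, and among DNTT-high cells 10.3% and 18.4%. Detection of FCER1A was thus not particular to the stem-like cells. Of the stem-like cells, 7 and 0 were called doublets.

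Near the limits of the rule the cells graded into their neighbours. Cells with a stem-like sum of 6 or 7 UMIs, just inside, numbered 59 and 17 and had CD34 at 288 and 178 CPM. Those with a sum of 4 or 5, just outside, numbered 51 and 16 and had CD34 at 325 and 174 CPM. With a sum of 8 or more, 371 and 195 cells had CD34 at 480 and 355 CPM. In CD34 level the cells just inside were thus nearer to those just outside. DNTT was at 0 UMIs in 105 and 35 of the stem-like cells, at 1 in 160 and 83, and at 2 in 165 and 94. Across the DNTT limit, APOC1 stood at 244 and 223 CPM in cells with no DNTT UMI, 207 and 172 CPM with 1 or 2, 177 and 151 CPM with 3 or 4, and 130 and 120 CPM with 5 or more. FCER1A stood at 174 and 236 CPM, 89.0 and 172 CPM, 54.8 and 101 CPM, and 28.8 and 47.4 CPM in the same 4 classes. Both genes were thus lower at each step of DNTT in both libraries, also inside the limit.

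To compare the stem-like cells with their neighbours on genes that the rule did not use, 4 further groups were taken that break just 1 limit each. DNTT-high cells (at least 3 DNTT UMIs) numbered 600 and 588, cycling cells (at least 3 UMIs of MKI67 and TOP2A) 73 and 17, MPO-positive cells 122 and 74, and GATA1-positive cells (at least 2 GATA1 UMIs) 111 and 131. Genes that vary with the gene used for a cut were bound to differ, so the tests measure how alike the difference was in the 2 libraries. UMIs were summed per library and group and compared with edgeR's quasi-likelihood test, in which library was a block and p-values were adjusted by the Benjamini-Hochberg method, at an adjusted p under 0.05. Fold changes are log2 of stem-like cells over the other group. Median UMIs per cell were 12474 and 13479 in the stem-like cells, against 13735 and 16377 in DNTT-high, 21102 and 24818 in cycling, 24288 and 30025 in MPO-positive, and 13690 and 16323 in GATA1-positive cells.

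The DNTT-high comparison gave the fewest calls of the 4. Of 8261 genes tested, 197 differed (2.38%), 92 higher in the stem-like cells (1.11%) and 105 lower (1.27%). Of the lineage lists, 9 of 19 tested erythroid and megakaryocyte genes and 2 of 9 eosinophil, basophil and mast cell genes were higher in the stem-like cells, and 5 of 17 lymphoid genes lower. CA2, a carbonic anhydrase of red cell and megakaryocyte precursors, stood at 127 and 191 CPM in the stem-like cells, against 36.9 and 75.6 CPM in DNTT-high cells (log2 fold change 1.53 ± 0.11 SE, edgeR's quasi-likelihood test, Benjamini-Hochberg adjusted p = 1.97e-06). Among cells of 8000 to 20000 UMIs only, CA2 kept its direction at 1.78 but missed the threshold in edgeR's test, with an adjusted p of 0.0819.

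Of 32 genes listed for erythroid and megakaryocyte priming, 28 were measured and 19 tested, and 9 were higher and none lower than in DNTT-high cells, with a median log2 fold change of 0.52 beside 0.00 over all genes tested. The 9 were CA2, NFE2 and GFI1B (factors of megakaryocyte and erythroid cells), PLEK (the platelet protein pleckstrin), and at under 15 CPM KLF1, EPOR, ITGA2B, CA1 and RHAG. EPOR, the erythropoietin receptor, stood at 4.33 and 12.1 CPM in the stem-like cells, against 0.582 and 0.802 CPM in DNTT-high cells. KLF1, the erythroid globin regulator, stood at 2.70 and 8.37 CPM against 0.349 and 1.20 CPM. Both gates allowed at most 1 GATA1 UMI per cell.

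Mast cell and basophil genes followed. MS4A2, the beta chain of the high-affinity IgE receptor, stood at 25.2 and 38.8 CPM in the stem-like cells, against 11.9 and 13.4 CPM in DNTT-high cells (log2 fold change 1.33 ± 0.14 SE, adjusted p = 5.12e-08 in edgeR's quasi-likelihood test). FCER1A stood at 108 and 181 CPM against 41.5 and 63.6 CPM, a log2 fold change of 1.43 ± 0.27. It was not called, with an adjusted p of 0.182 in the same edgeR test. CPA3, the mast cell carboxypeptidase, was higher at 4.51 and 16.1 CPM against 2.33 and 2.30 CPM. Of 9 genes tested in the eosinophil, basophil and mast list, MS4A2 and CPA3 were the 2 that were higher.

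Further genes higher than in DNTT-high cells were TIMP2, an inhibitor of matrix metalloproteinases, at 157 and 254 CPM in the stem-like cells against 85.0 and 126 CPM, and HPGD, at 80.6 and 62.3 CPM against 51.6 and 35.4 CPM. MICAL3, SERPINB1, RNPEP, GUCY1A1 and APOC1 were also higher. APOC1 differed by 0.48 ± 0.07 on the log2 scale (adjusted p = 1.59e-05, edgeR's quasi-likelihood test). DESeq2, which called 47 genes here, did not call HPGD, PLEK, NFE2, RNPEP, GUCY1A1, CD2, GAS6, RASSF9, IGHM, BAHCC1 or TESC, and edgeR called 101 genes with a stem-like sum of at least 10 and 2 without the library block. SERPINB1 and GUCY1A1 missed the threshold with that higher sum.

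On the lymphoid side, of 17 tested of 32 listed genes, 5 were lower in the stem-like cells than in DNTT-high cells and none higher, with a median of -0.48. BLNK, the adaptor of B cell receptor signalling, stood at 9.02 and 4.69 CPM in the stem-like cells, against 25.3 and 16.9 CPM in DNTT-high cells. TCF4, the E protein of B cells and plasmacytoid dendritic cells, stood at 102 and 88.4 CPM against 147 and 136 CPM, and CD2, an adhesion receptor of T and NK cells, at 36.2 and 18.4 CPM against 67.3 and 48.1 CPM. SATB1 and IL7R, the interleukin-7 receptor, were the other 2. IL7R had a UMI in 12 of 430 and 4 of 212 stem-like cells, so its level there rested on few cells. IGHM, the heavy chain of IgM, was lower at 48.7 and 31.1 CPM against 82.3 and 60.3 CPM (log2 fold change -0.82 ± 0.10 SE, adjusted p = 1e-06, edgeR's quasi-likelihood test). BLNK, TCF4, CD2 and IGHM were lower in the stem-like cells of both libraries.

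The stem-like cells also held less of some S phase transcripts than DNTT-high cells, although both groups were limited in MKI67 and TOP2A. UHRF1, which carries DNA methylation through replication, stood at 24.5 and 24.1 CPM in the stem-like cells, against 65.6 and 77.1 CPM in DNTT-high cells (log2 fold change -1.52 ± 0.11 SE, adjusted p = 1.53e-11, edgeR's quasi-likelihood test). Of 41 tested DNA replication genes 4 were lower (UHRF1, CLSPN, TK1 and LIG1), and of 38 tested genes of G2 and mitosis also 4 (NDC80, KIF15, SPC24 and SMC2), with none higher in either list. FLT3, a growth factor receptor of early lymphoid and myeloid progenitors, was lower at 34.3 and 27.1 CPM against 46.9 and 45.4 CPM, and HOXA7 at 28.3 and 20.4 CPM against 39.4 and 32.3 CPM. HIVEP3, GAS6, RASSF9, CCDC50, GRN, BAHCC1 and TESC completed the named genes that were lower.

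Several lists held no gene called against DNTT-high cells at this threshold, at which 2.38% of all genes were called. Of 27 tested stem cell transcription factors, 4 were higher, with ZBTB16, GFI1B and NFE2 among them, and 1 lower (HOXA7). Over all genes tested, 1.11% were higher and 1.27% lower. MEIS1 differed by -0.02 ± 0.16 and KIT by 0.03 ± 0.08 on the log2 scale. No gene was called in the lists of 55 ribosomal proteins, 47 nuclear genes of oxidative phosphorylation, 16 of glycolysis, 9 of MHC class II or 20 immediate early and heat shock genes that could be tested, nor among 16 tested cyclin-dependent kinase inhibitors and quiescence genes. With 2.38% called over all genes, lists of these sizes would hold few calls or none, so their lack of calls says little about them. CD34 stood at 457 and 346 CPM in the stem-like cells, against 505 and 426 CPM in DNTT-high cells (log2 fold change -0.22 ± 0.06 SE, adjusted p = 0.0617, edgeR's quasi-likelihood test).

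**Figure D2:**
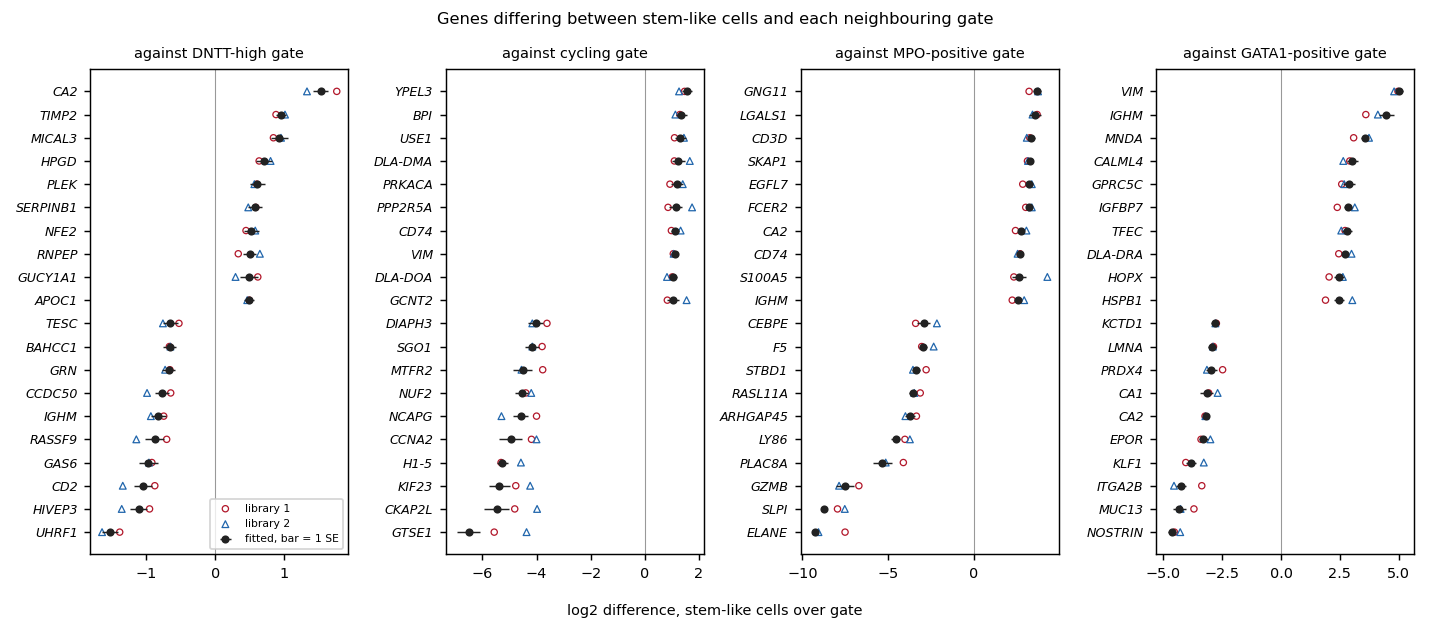
Genes picked by size among those that passed the test in each comparison, with the log2 difference of stem-like cells over the neighbouring group on the x axis; open circles and triangles are CD34-sorted libraries 1 and 2, filled points the fitted value with 1 SE. All 20 genes of each panel had the same direction in both libraries, which the choice of genes required, and the scales of the panels differ: CA2 led the DNTT-high panel at 1.53 and ELANE the MPO-positive panel at -9.26.

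Against cycling cells, 847 of 8257 genes differed (10.3%), 354 higher (4.29%) and 493 lower (5.97%) in the stem-like cells. Cycling cells numbered 17 in library 2, so this fit admitted groups of at least 10 cells. The mitotic and replication programs set the groups apart, as the cut on MKI67 and TOP2A bound them to. Of 51 tested genes of G2 and mitosis 48 were lower and none higher in the stem-like cells, with a median of -3.23 beside 0.03 over all genes tested. NUF2, a kinetochore protein, stood at 4.15 and 4.02 CPM in the stem-like cells, against 108 and 91.1 CPM in cycling cells, and H1-5, a linker histone made in S phase, at 4.15 and 5.36 CPM against 204 and 151 CPM. Of 43 tested replication genes 38 were lower and none higher, with a median of -1.24. GTSE1, CKAP2L, KIF23, CCNA2, NCAPG, MTFR2, SGO1 and DIAPH3 were the other named genes that were lower.

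The genes that stood higher in the stem-like cells than in cycling cells included antigen presentation and immediate early genes. CD74, the invariant chain of MHC class II, stood at 126 and 85.4 CPM in the stem-like cells, against 63.6 and 33.6 CPM in cycling cells (log2 fold change 1.11 ± 0.15 SE, adjusted p = 3.79e-08, edgeR's quasi-likelihood test). Of 9 tested MHC class II genes 5 were higher (DLA-DRA, DLA-DQA1, DLA-DOA, DLA-DMA and CD74) and none lower. YPEL3, a small protein tied to growth arrest, stood at 87.8 and 87.7 CPM against 31.1 and 36.0 CPM, and VIM, the intermediate filament vimentin, at 243 and 447 CPM against 117 and 213 CPM. FOS, an immediate early gene, ZFP36, KLF6 and FOSB were the 4 of 20 tested immediate early and heat shock genes that were higher, while the heat shock genes HSPA8, HSPH1 and HSP90AA1 were lower. In the stem-like cells FOS stood at 160 and 7.03 CPM, FOSB at 64.4 and 5.69 CPM, and KLF6 at 379 and 79.3 CPM. FOS and FOSB were thus low in library 2, where the cycling group held 17 cells.

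Of 26 tested stem cell factors 5 were higher than in cycling cells and none lower, with NKX2-3, MECOM, MLLT3 and NFE2 among the 5. MLLT3, which maintains human stem cells, stood at 49.0 and 42.2 CPM in the stem-like cells, against 34.4 and 4.796 CPM in cycling cells, a wide gap between the 2 cycling groups. Of the surface proteins, CD34, PTPRC, ESAM, JAM2 and TEK were higher and none lower of 21 tested. Ribosomal protein genes were higher by a small margin, 44 of 55 tested against 1 lower, with a median of 0.19. CDK4 was lower at 237 and 250 CPM against 348 and 429 CPM, and CCND2, a D-type cyclin, higher at 100 and 134 CPM against 71.4 and 81.5 CPM. BPI, USE1, PRKACA, PPP2R5A and GCNT2 completed the named genes that were higher. DESeq2 called 481 genes in this comparison, and edgeR 245 without the library block.

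The MPO-positive comparison gave the most calls of the 4. Of 8261 genes 2781 differed (33.7%), 1405 higher (17.0%) and 1376 lower (16.7%) in the stem-like cells. The granule genes with the largest differences were near 0 in the stem-like cells, while BPI, a bactericidal granule protein, stood at 47.6 and 85.0 CPM there, against 183 and 319 CPM in MPO-positive cells. ELANE, neutrophil elastase, stood at 0.902 and 2.68 CPM in the stem-like cells, against 346 and 1964 CPM in MPO-positive cells (log2 fold change -9.26 ± 0.14 SE, adjusted p = 5.18e-35, edgeR's quasi-likelihood test). SLPI, a protease inhibitor of granules, stood at 0.902 and 1.34 CPM against 470 and 430 CPM. GZMB, a granzyme, stood at 4.51 and 3.35 CPM against 574 and 1009 CPM, and CEBPE, the factor of granule maturation, at 7.03 and 18.7 CPM against 83.4 and 87.0 CPM. Of 18 tested myeloid genes 13 were lower and 3 higher, with a median of -1.18 beside 0.02 over all genes tested; the 3 were S100A8, RETN and LGALS1.

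Stem cell genes, in turn, were higher than in MPO-positive cells. Of 27 tested stem cell factors 18 were higher and 2 lower, with a median of 1.03; MEIS1 stood at 17.5 and 19.4 CPM in the stem-like cells, against 4.77 and 1.37 CPM in MPO-positive cells. GFI1B, the repressor of erythroid and megakaryocyte cells, stood at 26.7 and 39.2 CPM against 4.43 and 0.915 CPM, while GFI1, the related repressor of granulocytes, and MYB were the 2 that were lower. Of 20 tested surface proteins 14 were higher and 2 lower, among them CD34 (log2 fold change 0.94 ± 0.08 SE, adjusted p = 2.27e-11, edgeR's quasi-likelihood test) and PROM1, and of 14 tested further genes of human stem cells 12 were higher and none lower. EGFL7, a secreted protein of stem and endothelial cells, stood at 48.0 and 76.0 CPM against 5.79 and 6.41 CPM. MECOM was listed at 0 in the MPO-positive cells of both libraries. The rule genes SULT1B1, TFPI and ADGRG1 stood lower there, at 28.3 and 37.5, 24.5 and 16.5, and 29.3 and 15.1 CPM, without a test. MPO-positive cells held more UMIs at the median than the stem-like cells. They reach the rule's raw sum of at least 6 UMIs with a smaller share of these genes. The lower levels of the rule genes can thus follow from the choice of cells.

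Other programs differed as well. Of 47 tested nuclear genes of oxidative phosphorylation, 37 were lower in the stem-like cells than in MPO-positive cells and none higher, with a median of -0.38; COX5A, a subunit of cytochrome oxidase, stood at 367 and 360 CPM against 605 and 633 CPM. Replication genes were lower in 31 of 41 and higher in 2. CALR and P4HB, chaperones of the endoplasmic reticulum, were lower, with CALR at 136 and 167 CPM against 455 and 581 CPM. Of 21 tested interferon response genes 13 were higher and none lower, of 9 MHC class II genes 6 were higher and none lower, and of 20 immediate early and heat shock genes 13 were higher and 2 lower. YPEL3 stood at 87.8 and 87.7 CPM against 18.4 and 10.5 CPM, and 8 of 16 tested genes of the list of kinase inhibitors and quiescence were higher and 1 lower, CDKN1B, the inhibitor p27, and TXNIP among the 8. MPO-positive cells held about 24288 and 30025 UMIs at the median, against 12474 and 13479 in the stem-like cells, and the part of this depth gap in the calls was not tested, since too few MPO-positive cells fell between 8000 and 20000 UMIs.

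FCER2 was also higher, at 115 and 114 CPM in the stem-like cells against 13.3 and 10.1 CPM in MPO-positive cells. The remaining named genes that were higher were GNG11, LGALS1, CD3D, SKAP1, CA2, CD74, S100A5 and IGHM. Those that were lower were PLAC8A, LY86, ARHGAP45, RASL11A, STBD1 and F5, the last a coagulation factor. DESeq2 called 1406 genes in this comparison and edgeR 961 without the library block, and CEBPE missed the threshold with a stem-like sum of at least 10.

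Against GATA1-positive cells 1193 of 8261 genes differed (14.4%), 655 higher (7.93%) and 538 lower (6.51%) in the stem-like cells. CA2 showed the step between the groups plainly, at 127 and 191 CPM in the stem-like cells, against 1203 and 1785 CPM in GATA1-positive cells (log2 fold change -3.19 ± 0.09 SE, adjusted p = 1.11e-11, edgeR's quasi-likelihood test). KLF1 stood at 2.70 and 8.37 CPM against 60.3 and 90.3 CPM, EPOR at 4.33 and 12.1 CPM against 55.3 and 104 CPM, and ITGA2B, the platelet integrin, at 3.61 and 5.02 CPM against 46.6 and 140 CPM. Of 19 tested erythroid and megakaryocyte genes 13 were lower and 1 higher, with a median of -1.02 beside 0.01 over all genes tested. CA2, KLF1, EPOR and ITGA2B stood between their levels in DNTT-high and in GATA1-positive cells.

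VIM marked the opposite side. It stood at 243 and 447 CPM in the stem-like cells, against 6.83 and 15.1 CPM in GATA1-positive cells (log2 fold change 5.02 ± 0.14 SE, adjusted p = 4.7e-26, edgeR's quasi-likelihood test). IGHM stood at 48.7 and 31.1 CPM against 3.11 and 0.864 CPM, and DLA-DRA, an MHC class II chain, at 347 and 165 CPM against 62.7 and 19.9 CPM. MNDA, a nuclear protein of myeloid and B cells, stood at 165 and 144 CPM against 18.6 and 9.93 CPM. Of 9 tested MHC class II genes 6 were higher and none lower, and of 17 tested lymphoid genes 6 were higher and none lower. CALML4, GPRC5C, IGFBP7, TFEC, HOPX and HSPB1 completed the named genes that were higher, and NOSTRIN, MUC13, CA1, PRDX4, LMNA and KCTD1 those that were lower.

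Stem cell factors were divided in this comparison, 9 higher and 5 lower of 27 tested. HOXA9, HOXA7, HOXA3, HHEX, NKX2-3, BCL11A, IKZF1, MLLT3 and ETV6 were higher, and GFI1B, TAL1, FLI1 and MYB were among those that were lower. TAL1, which is needed for blood formation and red cells, stood at 84.4 and 71.3 CPM in the stem-like cells, against 176 and 150 CPM in GATA1-positive cells. CD34 was higher by 1.69 ± 0.09 on the log2 scale (adjusted p = 1.05e-15, edgeR's quasi-likelihood test) and FLT3 by 2.62 ± 0.27 (adjusted p = 1.23e-09). MEIS1, at 17.5 and 19.4 CPM against 29.8 and 24.2 CPM, had an adjusted p of 0.0852 in edgeR's test. FCER1A, at 108 and 181 CPM against 362 and 312 CPM, had an adjusted p of 0.0733, and MS4A2 was lower at 25.2 and 38.8 CPM against 52.8 and 71.3 CPM.

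Replication genes were lower in the stem-like cells than in GATA1-positive cells in 16 of 41 and higher in none. Of 21 tested interferon response genes 6 were lower and none higher, with MX2, an antiviral GTPase, at 18.2 and 16.1 CPM in the stem-like cells, against 79.5 and 21.6 CPM in GATA1-positive cells, and OAS1 at 18.0 and 15.1 CPM against 59.0 and 30.7 CPM. The antioxidant PRDX2, abundant in red cells, stood at 36.2 and 40.2 CPM against 86.4 and 143 CPM. Oxidative phosphorylation genes showed 3 lower and none higher of 47, a share near the 6.51% of all tested genes that were lower. DESeq2 called 488 genes in this comparison, and edgeR 296 without the library block, 687 with a stem-like sum of at least 10 and 795 among cells of 8000 to 20000 UMIs.

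**Figure D3:**
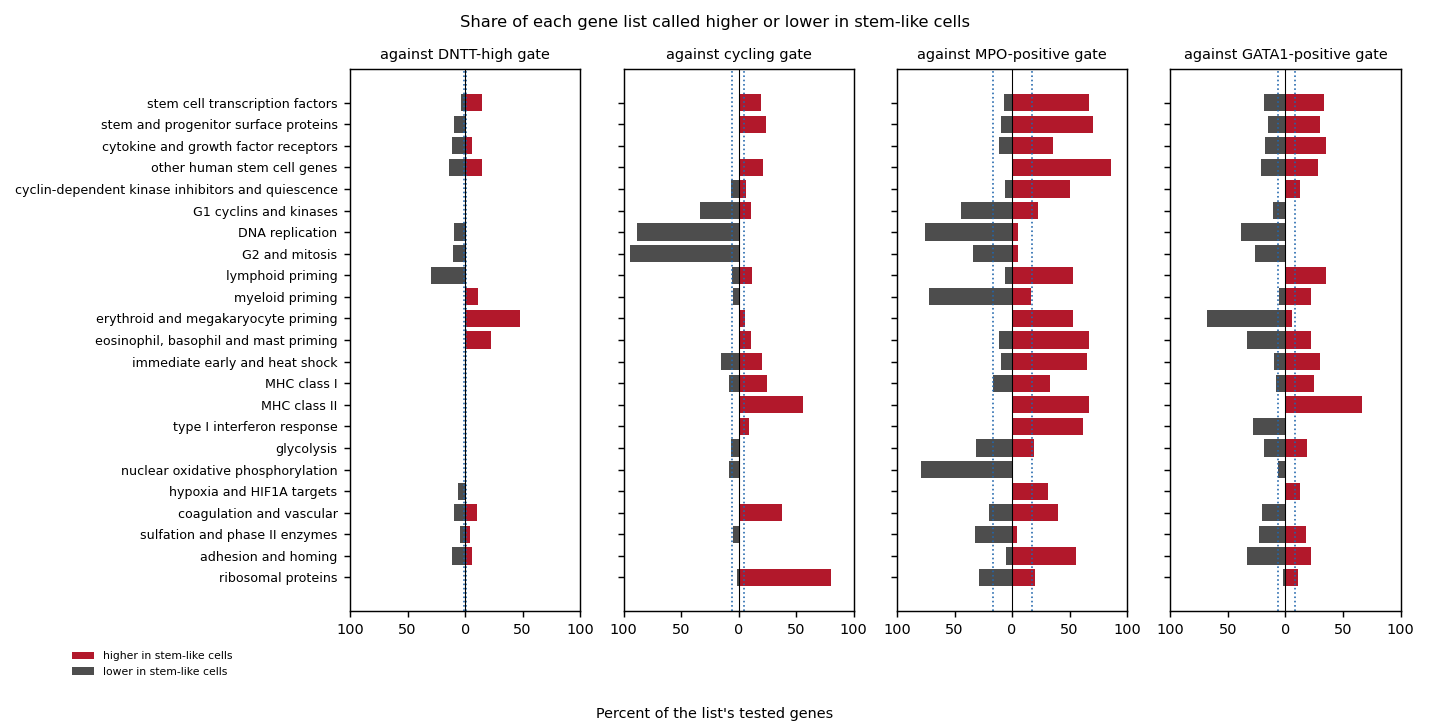
For each list of genes (rows), the percent of tested members that were higher (right) or lower (left) in the stem-like cells than in the neighbouring group named above the panel; the dotted lines mark the percent called in that direction over all genes tested. The erythroid and megakaryocyte list lies to the right against DNTT-high cells, with 9 of 19 higher, and to the left against GATA1-positive cells, with 13 of 19 lower.

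The stem-like cells were not uniform. Counts of each cell were thinned to 5000 UMIs, which left 414 and 201 cells, and the variance was divided by the mean, a ratio near 1 where counts vary by sampling alone. Its median over 2144 genes was 1.06 and 1.06. VIM varied most, at 7.15 and 10.5, followed by CA2, at 4.78 and 6.72. TMSB10, an actin-binding peptide, stood at 3.39 and 7.08, CRIP1 at 3.20 and 6.13, TUBA1B, an alpha tubulin, at 4.65 and 3.12, LGALS1, a galectin, at 2.93 and 3.66, and FCER1A at 2.80 and 3.63. APOC1, TIMP2, RPS24, HSP90AB1 and HSPB1 were the other named genes of the top 15, and 12 of the 15 were the same when cells were thinned to 2000 UMIs.

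The variable genes fell on opposite sides within the group. Across the thinned stem-like cells, VIM went with CD74 (r = 0.50 and 0.52), HSPB1, a small heat shock protein (0.49 and 0.57), DLA-DRA (0.50 and 0.44), BPI (0.47 and 0.41), HLA-DQB2 (0.41 and 0.53) and EGFL7 (0.40 and 0.42). It went against FCER1A (-0.33 and -0.41), TIMP2 (-0.27 and -0.32), HSP90AB1 (-0.36 and -0.37) and the ribosomal protein RPLP0 (-0.36 and -0.37). FCER1A in turn went with CA2 (0.40 and 0.38), TIMP2 (0.37 and 0.29) and CD47 (0.27 and 0.37). These correlations describe 414 and 201 cells that share a library, an animal and 1 thinned depth, and cells are not replicates.

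**Figure D4:**
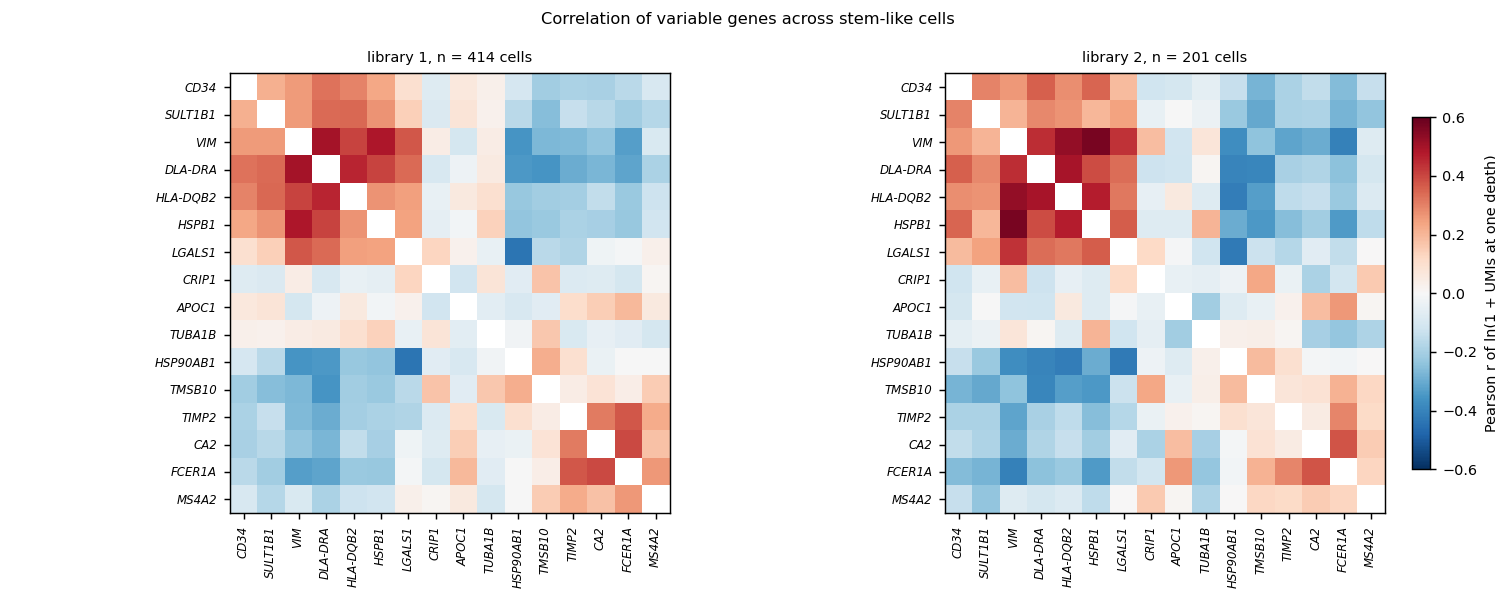
Pearson correlation of ln(1 + UMIs at 1 depth) between variable genes and reference genes across the stem-like cells, one panel for each CD34-sorted library (414 and 201 cells), in red where genes went together and in blue where they went apart. VIM, DLA-DRA, HLA-DQB2 and HSPB1 form a red block in both panels, and FCER1A, CA2 and TIMP2 a smaller one.

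Stem-like cells with at least 3 VIM UMIs at this depth numbered 81 and 59, and those with none 266 and 103. Per 5000 UMIs, the VIM-rich cells averaged 3.28 and 2.66 CD34 UMIs, against 1.94 and 1.60 in cells without VIM. SULT1B1 averaged 3.099 and 2.27 against 1.504 and 1.37, DLA-DRA 4.28 and 1.85 against 1.13 and 0.515, and MECOM 0.136 and 0.153 against 0.0113 and 0.0485. CA2 averaged 0.111 and 0.271 against 0.936 and 1.61, and FCER1A 0.0123 and 0.153 against 0.917 and 1.74. HOXA9 averaged 0.333 and 0.102 against 0.169 and 0.165, so its order differed between the libraries. MEIS1 averaged 0.0988 and 0.119 against 0.0789 and 0.0777, KIT 0.556 and 0.695 against 0.432 and 0.583, and FLT3 0.210 and 0.169 against 0.132 and 0.0583. VIM-rich cells thus held more CD34, DLA-DRA and MECOM RNA and less CA2 and FCER1A RNA in both libraries, with few UMIs behind the MECOM averages. Their median depth before thinning was 9304 and 9823 UMIs, against 13708 and 15121 in cells without VIM, and the part of this gap in the differences was not tested. SULT1B1 is a gene of the rule, which set a raw sum of at least 6 UMIs. A shallower cell needs a larger share of these genes to reach that sum, so the SULT1B1 difference can follow from the choice of cells.

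A handful of cells within the limits carried an unlike program. At least 3 GATA3 UMIs were found in 7 and 2 cells, picked after their values were seen and none called a doublet. GATA3, the factor of T cells and innate lymphoid cells, stood at 1449 and 1030 CPM in them, against 8.21 and 3.70 CPM in the other stem-like cells. IL7R stood at 684 and 666 CPM against 8.39 and 3.37 CPM, and IL17RB, a receptor for interleukin-25, at 1254 and 909 CPM against 13.7 and 10.8 CPM. Each of these 2 genes had a UMI in 5 of the 7 cells and in 1 of the 2, so their levels in library 2 rest on 1 cell. CD3E, a chain of the T cell receptor complex, and LCK, the T cell kinase, gave no UMI in any of the 9 cells, and RARRES2 gave at least 1 in each. CD3D, another chain of that complex, had a UMI in 7 of 7 and 1 of 2 of them, at 260 and 242 CPM against 45.4 and 60.9 CPM in the other stem-like cells, and CD2 in 2 and 1. They held 42 IL7R UMIs, against 46 in the other stem-like cells of library 1, and 11 against 10 in library 2. The 46 and 10 UMIs came from 7 and 3 cells. At least 3 IL7R UMIs were found in 8 and 2 stem-like cells, and 5 and 1 of these also held at least 3 GATA3 UMIs.

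The 2 sorted libraries differed in a small set of genes. Of 2099 genes with at least 50 CPM in the stem-like cells of either library, 5 were at least 4-fold higher in library 1 and 3 in library 2. FOS stood at 160 CPM in library 1 and 7.03 CPM in library 2, FOSB at 64.4 and 5.69 CPM, and KLF6 at 379 and 79.3 CPM. The other sorted cells showed the same order, with FOS at 86.3 and 5.23 CPM. ANXA9 stood at 10.1 and 59.3 CPM in the stem-like cells, and LYZ, lysozyme, at 32.1 and 79.7 CPM, with 101 and 764 CPM in the other sorted cells. The LYZ level of library 2 rested on the 35 stem-like cells with no DNTT UMI, at 402 CPM against 24.5 CPM in the 105 such cells of library 1, and the cells with 1 or 2 DNTT UMIs stood at 28.7 CPM in library 2 and 34.3 CPM in library 1. With 1 library for each dog, animal and library cannot be told apart.

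The share of cells within the limits was higher in both sorted libraries than in all 3 whole marrows. It averaged 7.37 ± 2.46% in the sorted libraries and 0.715 ± 0.243% in whole marrow (SD, n = 2 and n = 3), a difference of 6.66 percentage points. The exact two-sided permutation test over the 5 libraries gave p = 0.1, the smallest it can give with 10 splits. Whole marrow held 48, 45 and 22 such cells. The sum rested on RARRES2 alone in 4 and 2 of the stem-like sorted cells, against 38, 35 and 18 of the whole-marrow cells. At least 3 of the 5 genes were detected in 403 and 204 sorted cells, against 9, 6 and 3 whole-marrow cells. A CD34 UMI was found in 412 and 199 sorted cells, against 9, 5 and 2 whole-marrow cells. Counting cells with at least 3 of the 5 genes, an alternative chosen after seeing the data, the share was 6.98% in sorted libraries and 0.108% in whole marrow.

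**Figure D5:**
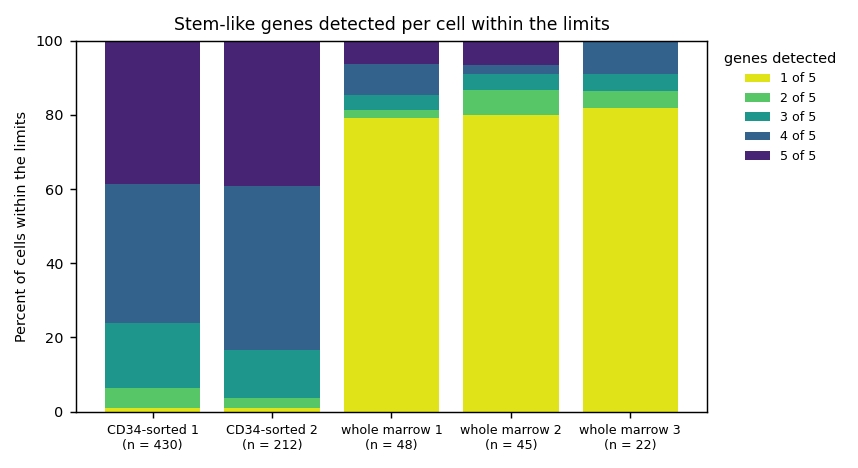
Percent of cells within the limits in which 1, 2, 3, 4 or 5 of the stem-like genes were detected, for the CD34-sorted libraries (n = 430 and 212 cells) on the left and whole marrow (n = 48, 45 and 22) on the right. All 5 genes were found in 166 and 83 of the sorted cells, and 1 gene in 38, 36 and 18 of the whole-marrow cells.

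Summed RNA showed the same contrast between sorted and whole-marrow cells of these limits. Of 4742 genes tested 999 differed (21.1%), 378 higher (7.97%) and 621 lower (13.1%) in the sorted stem-like cells. HOXA6, a homeobox factor, stood at 50.7 and 48.9 CPM in sorted cells, against 1.59, 6.12 and 0 CPM in whole-marrow cells (log2 fold change 3.51 ± 0.59 SE, adjusted p = 0.00709, edgeR's quasi-likelihood test), and HOXA7 at 28.3 and 20.4 CPM against 1.59, 1.53 and 0 CPM. GCSAML stood at 28.5 and 37.2 CPM against 1.59, 1.53 and 1.90 CPM. KCNK12, NDST3, HEXD, SIGIRR, EBI3, NEK10 and CCDC28B were the other named genes that were higher. JCHAIN, the joining chain of plasma cells, stood at 4.15 and 3.35 CPM in sorted cells, against 1197, 5463 and 4548 CPM in whole-marrow cells (log2 fold change -10.76 ± 1.41 SE, adjusted p = 0.0144, edgeR's quasi-likelihood test). TNFRSF17, the plasma cell receptor BCMA, stood at 0.180 and 0.335 CPM against 138, 150 and 280 CPM. The stromal genes CXCL12, COL1A2 and SERPINH1 gave no UMI in sorted cells, against 27.0, 220 and 55.2 CPM for CXCL12 in whole-marrow cells, and S100A12, MZB1, SELENOM, IGFBP2 and ESM1 were also lower.

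Marker sums moved with this comparison. Plasma cell markers summed to 19.3 and 13.7 CPM in sorted cells, against 1411, 6506 and 5572 CPM in whole-marrow cells, mature neutrophil markers to 48.3 and 37.5 CPM against 2760, 337 and 3452 CPM, and stromal markers to 0 and 0.335 CPM against 66.7, 412 and 118 CPM; their part in the result was not tested. Among cells with at least 3 of the 5 genes, 2 of 1834 genes differed, both lower in sorted cells and known by identifier only, and 133 had an unadjusted p under 0.05. Here the whole-marrow sums held 9, 6 and 3 cells, with 152879, 60897 and 32838 UMIs. With so few cells, the low count of calls does not show that the cells were alike. The count of 999 fell to 45 without sorted library 1 and to 40 without sorted library 2, and stood at 1638 without whole marrow 1 and 520 without whole marrow 2. In summed RNA, fewer cells with a transcript and less RNA per cell cannot be told apart.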

How the data were processed

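Single-cell RNA was measured in 2 CD34-sorted and 3 whole-marrow libraries. The deposited values are raw UMI counts per gene and cell; Cell Ranger 7.0.1 made them per the file headers, while the submitters' processing notes name Cell Ranger 7.1.0 and CanFam3.1. The gene annotation release (not given in the sources used here) is unknown, and no sequence was printed. Usable barcodes had at least 200 detected genes and at most 10% mitochondrial UMIs. The members, gene lists and limits were chosen with earlier results of these data known.

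Counts were summed per library and group and tested in edgeR 4.0.16 (R 4.3.3) with TMM factors and its filter on low counts, all groups with at least 20 cells in 1 fit with library as a block, since each library supplies every group; genes of the rule and mitochondrial genes were not tested. Cycling cells were tested in a second fit with at least 10 cells. Named genes were up to 10 per direction with an adjusted p under 0.05, the same direction in both libraries and at least 30 CPM in the higher group, by size; the 20 leading genes needed 50 CPM and were ranked by the lower of the 2 library ratios with 1 CPM added; variable genes needed a mean of 0.2 UMIs. The step was tested on simulated data. Doublets were scored with Scrublet in scanpy 1.11.5; its automatic threshold marked 0 to 4 cells, so the top scores were called at 0.8% per 1000 cells and kept unless stated. DESeq2 1.42.0 was an alternative.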

Additional observations from a re-analysis of the deposited data

How the results depend on the processing

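Direction was the same for all 80 named genes under every alternative that gave a value. With 1 sorted library left out this was fixed beforehand, since the choice of genes required the same direction in both libraries. All 80 stayed past the threshold with relative log expression factors, without the low-count filter, and with only the 2 groups compared. Pairing by library mattered: with no replicate block, 2 genes were called against DNTT-high, 245 against cycling, 961 against MPO-positive and 296 against GATA1-positive cells, and 28 of the 80 named genes missed the threshold, 19 of them from the DNTT-high comparison. DESeq2 called 47, 481, 1406 and 488 in the same order, 31 of the 47 higher, and 11 of the 20 genes named against DNTT-high missed its threshold (HPGD, PLEK, NFE2, RNPEP, GUCY1A1, CD2, GAS6, RASSF9, IGHM, BAHCC1 and TESC). A stem-like sum of at least 10 gave 101 against DNTT-high and 687 against GATA1-positive cells, where SERPINB1, GUCY1A1 and CEBPE (the last against MPO-positive cells) missed it. Cells of 8000 to 20000 UMIs gave 795 against GATA1-positive cells. The cycling comparison could not be fitted under the last 2 or with doublets removed, nor MPO-positive cells in that UMI range. Against whole marrow, 1795 genes were called without the filter, 2 with at least 3 of the 5 genes, and 40 to 1638 when 1 library was left out; DESeq2 moved the median of all genes there to -0.19. The difference in share was 9.90 points with limits per 10000 UMIs. No paired analysis was possible because the labels do not tie each sorted library to a marrow. The cause of these shifts was not tested. With 17 cycling cells in a library and 212 stem-like cells, genes of few UMIs are resolved poorly.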
